A study of Drosophila melanogaster with 16 samples.

Results

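The histone genes of Drosophila melanogaster were followed across adult foregut tissues, with the replication-dependent copies kept apart from the variants. Members were taken from the gene annotation by symbol: every gene named His1:, His2A:, His2B:, His3: or His4:, and the 5 variant genes His2Av, His3.3A, His3.3B, His4r and BigH1. This gave 116 genes of 17039, of which 111 were replication-dependent copies. Only 36 of the 116 had a row in the deposited tables, namely all 5 variants and 31 of the 111 copies (27.9%). Of the transcripts of other protein-coding genes, 96.2% had a row. The other 80 copies were not analysed here. By family, the tables held 12 of 23 His1 copies, 4 of 20 His2A copies, 7 of 23 His2B copies, 2 of 23 His3 copies and 6 of 22 His4 copies. Reads were therefore summed over the listed copies of a family, and such a sum is called a family here.

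Nucleosomes wrap DNA around a core of H2A, H2B, H3 and H4, and the linker histone H1 binds the DNA between them. Replication-dependent histone genes lie in a tandem cluster, are transcribed mainly in S phase, and give mRNAs that end in a stem-loop in place of a poly(A) tail. The stem-loop is bound by Slbp and cut with the help of the U7 small nuclear RNA. In flies these genes can also give polyadenylated transcripts when that processing fails. Variant histones are made throughout the cell cycle from intron-containing genes outside the cluster, and their mRNAs carry a poly(A) tail. In the fly, His2Av does the work of the mammalian variants H2A.Z and H2A.X, His3.3A and His3.3B encode the same H3.3 protein, His4r encodes H4, and BigH1 is the linker histone of the germline and early embryo.

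The flies were mated adult females of the wild-type strain Canton-S, and every group was raised axenically. LpWF, a strain of the gut bacterium Lactiplantibacillus plantarum, was given during adulthood to the flies of 3 groups: crop (3 libraries), proventriculus or PV, the valve-like organ between foregut and midgut (5 libraries), and salivary gland or SG (3 libraries). A group of 5 PV libraries came from axenic flies. Each library was made from tissue pooled over many flies, and nothing in the labels says whether replicates came from separate cultures, so p-values measure only the spread between these libraries. Crop and PV RNA was extracted on a column and its ribosomal RNA was removed with a kit made for human, mouse and rat. SG RNA was extracted with TRIzol and its mRNA was selected by the poly(A) tail. Tissue, RNA extraction and library preparation cannot be told apart wherever SG is compared with the other tissues, and in such bulk samples fewer cells of a type and less RNA per cell cannot be told apart either.

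Reads on genes numbered 18186391 to 45500807 per library. Ribosomal RNA held 6.14 to 10.5% of them in crops, 0.843 to 1.01% in SGs, 15.3 to 38.9% in PVs with LpWF and 19.1 to 43.4% in axenic PVs, where replicates 4 and 5 of each PV group were over 25%. The labelled tissues carried their markers. The summed level of 4 SG markers was 5569 to 7692 coding TPM in SGs and 36.9 to 106 in the other libraries, and that of 5 PV epithelium markers was 13912 to 26982 in PVs, 1305 to 4829 in crops and 0.276 to 3.07 in SGs. Of the SG markers, fkh did not set SG apart by pooled reads, unlike sage, LysP and Est-6. It had 17897 reads over the 3 SGs, 13862 over the 3 crops and 18710 over the 5 PVs with LpWF. These sums are not scaled for depth or number of libraries. Coding TPM is TPM, a measure of transcripts per library that allows for length, rescaled to the same total over the protein-coding genes of each library.

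All 111 copies lie on chromosome arm 2L between 21416953 and 21541681, a span of 124729 bases (BDGP6). The variants lie elsewhere: His2Av at 26866929 to 26869220, His4r at 14625755 to 14626614 and BigH1 at 14663450 to 14664822 on 3R, His3.3A at 5055058 to 5056149 on 2L, and His3.3B at 9152523 to 9156669 on X. The listed transcripts of the families were short, with 1023 bases for His1, 476 or 493 for His2A, 595 for His2B, 529 for His3 and 412 to 528 for His4. In the deposited tables the effective length of all 45 member transcripts was the full length less 250 bases in every library, so TPM gives a short transcript more weight than its reads per base would.

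Replication-dependent histone RNA was plentiful in crop and PV and close to absent from the SG libraries. The families together held 11351, 8742 and 12604 estimated reads in the 3 crop libraries, 7974 to 13649 in PVs with LpWF (median 12271), and 6552 to 13382 in axenic PVs (median 10905). The 3 SG libraries held 184.5, 111 and 125.0. Reads on the variants overlapped between all groups, with 26629 to 35388 in crops, 20558 to 45954 in PVs with LpWF, 22351 to 38922 in axenic PVs and 27929 to 36489 in SGs.

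**Figure D1:**
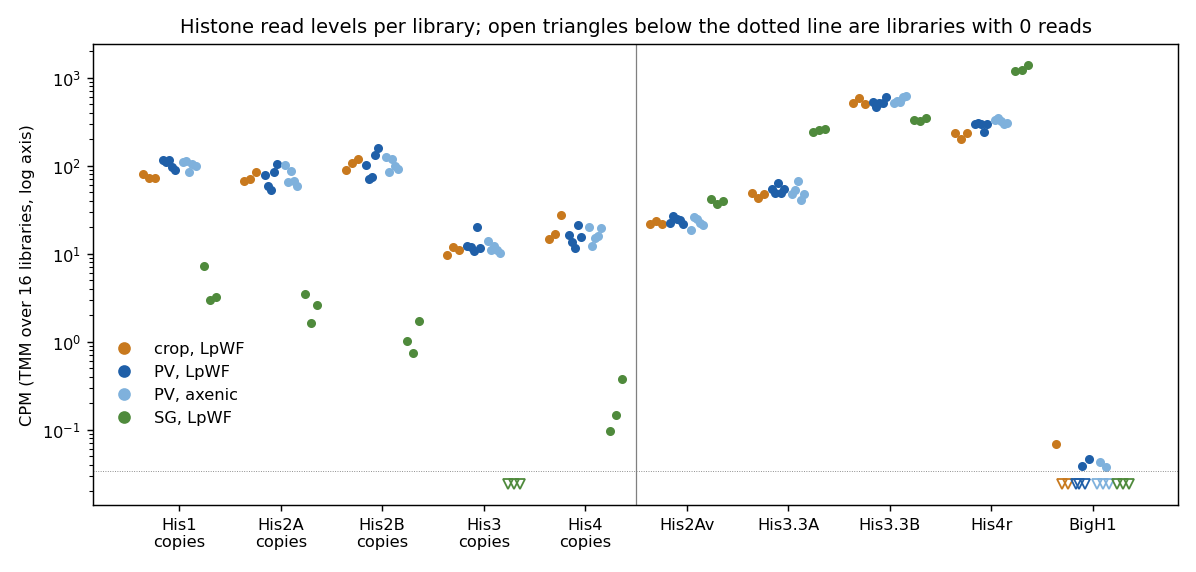
Counts per library scaled to CPM (with TMM normalization over all 16 libraries; log axis) of each histone family and variant. Each point is a library, coloured by group; open triangles are libraries at 0 reads. SG points lie below all crop and PV points in the 5 families, His3 being at 0 in all 3 SG libraries; on this scale SG points lie above the others for His2Av, His3.3A and His4r and below them for His3.3B, while on the coding TPM scale they lie below for His2Av, His3.3A and His4r too.

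Per transcript, the replication-dependent copies made up 41.5, 45.5 and 47.6% of histone TPM in the crop libraries, a mean of 44.9% ± 3.10 (SD, n = 3). In PVs with LpWF the share ran from 34.5 to 48.7% with a mean of 41.5% ± 6.30 (SD, n = 5), and in axenic PVs from 34.6 to 44.8% with a mean of 38.9% ± 3.97 (SD, n = 5). These 3 groups overlapped. In SGs the share was 0.712, 0.348 and 0.489%, a mean of 0.516% ± 0.183 (SD, n = 3), below every other library. The shares were set by the unit: counted as reads, they were 25.7% in crops, 26.2% in PVs with LpWF, 24.5% in axenic PVs and 0.449% in SGs.

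The balance of copies and variants differed between the histones. For H2A, the cluster copies held 89.4 to 91.9% of TPM in crops, 85.5 to 93.0% in PVs with LpWF and 87.3 to 93.8% in axenic PVs, with His2Av holding the rest. For H3 the order was the opposite, and the listed His3 copies held 8.06 to 9.40%, 8.31 to 15.0% and 7.41 to 10.9% in the same groups, the rest being His3.3A and His3.3B. For H4, the His4 copies held 12.2 to 17.5% in crops, 7.79 to 16.1% in PVs with LpWF and 7.12 to 11.6% in axenic PVs, and His4r held the rest. In SGs the cluster copies held 11.0 to 18.5% of H2A TPM, 0% of H3 TPM and 0.0114 to 0.0386% of H4 TPM. H2B has no variant gene among the members. The low H3 and H4 shares rest on tables that list 2 of 23 His3 copies and 6 of 22 His4 copies; whether reads of the other copies are missing from the sums was not tested.

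**Figure D2:**
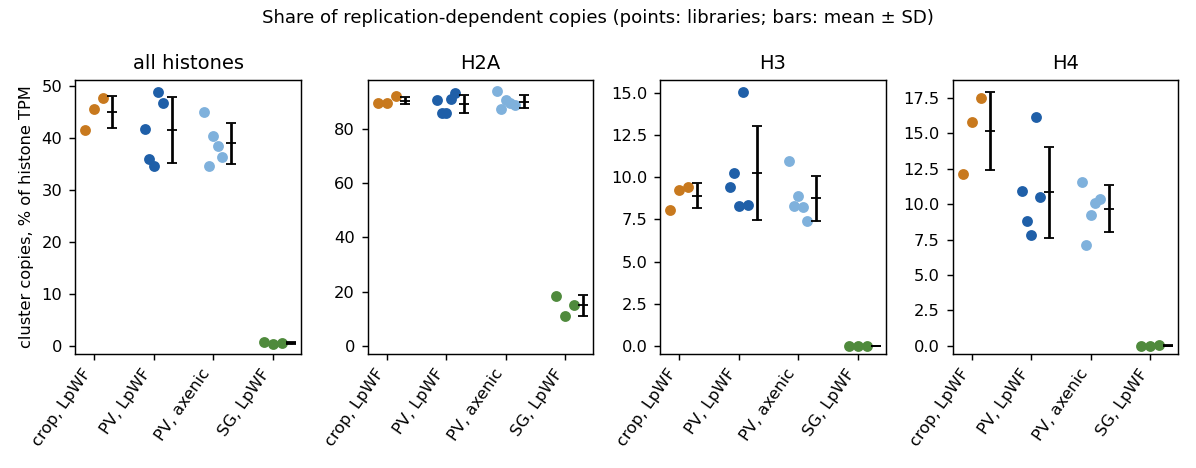
Percent of TPM held by replication-dependent copies among all histones and, in the next panels, among H2A, H3 and H4 genes; points are libraries and black bars are mean ± SD. The crop and both PV groups overlap in the first panel, at means of 44.9, 41.5 and 38.9%, and the SG libraries lie at 0.516%; the vertical scales differ between panels.

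By coding TPM, His2A and His2B stood at the same level within the cluster, His4 and His1 were lower, and His3 was the lowest. In crops the mean levels were 757 ± 110 coding TPM for His2A, the core histone at the rim of the nucleosome, and 749 ± 103 for its partner His2B (SD, n = 3). The ratio of His2A to His2B was 0.946 to 1.05 in crops and 0.907 to 1.17 in PVs, so on this scale the families did not differ beyond their spread. His4 stood at 272 ± 64.4 coding TPM in crops, the linker family His1 at 239 ± 16.4 and His3 at 96.3 ± 8.46 (SD, n = 3), and the ranges of His4 and His1 overlapped. In PVs with LpWF the order of means was His2A at 384, His2B at 382, His1 at 173, His4 at 119 and His3 at 60.1 coding TPM. The order depends on the length correction. In reads per annotated base, His2B was 1.01 to 1.30 times His2A and His1 was 1.16 to 4.03 times His4, above 1 in all 13 crop and PV libraries. Among 13593 protein-coding features, the mean of His2A ranked 222 in crops and 231 in both PV groups, and that of His2B ranked 224, 234 and 245.

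Among the variants, His4r was the highest in each group. In crops it stood at 1610, 1322 and 1628 coding TPM and ranked 126 of the 13593 features by its mean. His3.3B followed with 752 to 845 coding TPM in crops, then His3.3A with 168 to 201 and His2Av with 78.0 to 82.6, and no neighbours in this order overlapped. The order was the same in PVs with LpWF, where His4r ran from 822 to 1149 coding TPM, His3.3B from 393 to 430, His3.3A from 99.0 to 144 and His2Av from 36.0 to 52.8. In SGs, His3.3A at 54.0 to 64.8 coding TPM stood above His3.3B at 32.7 to 37.5. His3.3B accordingly held 79.1 to 83.4% of H3.3 TPM in crops, 74.9 to 84.6% in PVs and 36.6 to 37.7% in SGs. BigH1 had 3 reads in 1 crop library, at most 2 in any PV library and 0 in every SG library. It passed no filter and was not tested. A count of 3 over the group, the limit that 0 reads allow in SGs, corresponds to 0.0582 CPM.

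Crop and PV were compared in flies given LpWF, in libraries prepared the same way. Differences were tested with edgeR's quasi-likelihood test over 9704 genes and family sums, with Benjamini-Hochberg adjustment, and called at an adjusted p under 0.05. Of all features 51.7% were called, 26.2% higher and 25.5% lower in crop. Of the 5 families 1 was called, and of the 4 variants tested 1 was called, both lower in crop by this test.

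His1, whose product binds linker DNA, had 79.7, 73.2 and 71.6 CPM in crops against 117, 111, 117, 96.1 and 88.2 CPM in PVs with LpWF. All 3 crop libraries lay below all 5 PV libraries. The log2 difference was -0.51 (SE 0.11, adjusted p = 0.00336), and it was -0.62 (adjusted p = 0.000153) without the PV libraries over 25% ribosomal RNA. His4r had 233, 202 and 235 CPM in crops against 294, 306, 299, 238 and 295 CPM in PVs with LpWF, again without overlap. Its log2 difference was -0.37 (SE 0.10, adjusted p = 0.0139), and the call was lost without crop replicate 2 (-0.30, adjusted p = 0.0649). On the coding TPM scale every histone stood higher in crop, His1 by 0.48 and His4r by 0.60, where the median of all genes stood 0.92 higher, and relative to that median His1 was at -0.44 and His4r at -0.32.

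The core families did not pass the test. His2A had 66.7, 71.0 and 85.6 CPM in crops and 77.4, 58.3, 52.4, 84.4 and 104 CPM in PVs with LpWF. His4 had 14.5, 16.9 and 27.6 CPM in crops and 16.3, 13.5, 11.7, 21.0 and 15.4 CPM in those PVs, and the groups overlapped for both. The log2 differences of crop from PV were -0.02 for His2A (95% interval -0.53 to 0.48), -0.04 for His2B (-0.68 to 0.61), -0.30 for His3 (-0.77 to 0.17) and 0.33 for His4 (-0.22 to 0.88). Those of the other variants were -0.11 for His2Av (-0.31 to 0.10), -0.22 for His3.3A (-0.45 to 0.02) and 0.01 for His3.3B (-0.22 to 0.24). The spread of His2A and His2B was wide in PVs: His2B ran from 70.7 to 157 CPM in PVs with LpWF and from 89.7 to 118 CPM in crops, while His3.3B ran from 463 to 599 and from 499.8 to 584 CPM. Without the PV libraries over 25% ribosomal RNA, His2A was at 0.24 (adjusted p = 0.246) and His2B at 0.35 (adjusted p = 0.105), still not called.

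**Figure D3:**
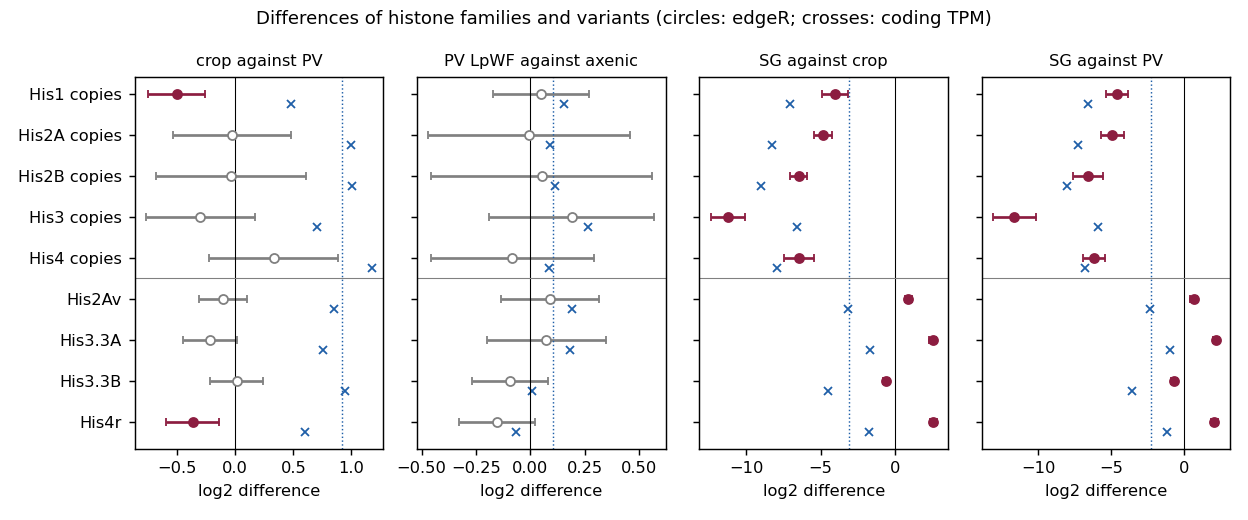
Log2 difference of each family and variant in the 4 comparisons, with 95% intervals; filled red circles passed the edgeR test at an adjusted p under 0.05 and open grey circles did not; in the SG panels His3 and His4 passed the filter only through crop or PV. Blue crosses are the differences in log2(coding TPM + 1) and the dotted blue line is the median of all genes on that scale (0.92, 0.10, -3.10 and -2.24 in panel order), on which the sign flips in the first panel for every histone but His4 and His3.3B and in both SG panels for His2Av, His3.3A and His4r.

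Colonization with LpWF was tested within PV, 5 libraries against 5. No histone family and no variant was called among the 9 tested. The background was low, since 0.0107% of 9352 features were called (1 gene by edgeR, 51 by DESeq2, and 909 at an unadjusted p under 0.05). His2B had 101, 70.7, 73.8, 132 and 157 CPM in PVs with LpWF and 125, 84.2, 118, 97.8 and 90.3 CPM in axenic PVs, and the groups overlapped. His3 had 12.4, 12.0, 10.7, 20.3 and 11.6 CPM with LpWF and 14.1, 11.1, 12.2, 10.9 and 10.2 CPM without. The largest of the 9 differences was that of His3, 0.19 on the log2 scale (95% interval -0.19 to 0.57, adjusted p = 0.765), and His3.3B and His4r lay at -0.09 (-0.27 to 0.08) and -0.15 (-0.33 to 0.02). The intervals were narrowest for His3.3B and His4r, the variants with the most reads, and the upper ends for His2B and His3 were 0.56 and 0.57. None of the 9 was called by DESeq2 or with a term for the libraries over 25% ribosomal RNA.

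Over the 10 PV libraries, His2A and His2B moved together. Pearson's r of their log2 CPM was 0.94 and Spearman's rho 0.94, with permutation p-values adjusted over 36 pairs of members of 0.00432 and 0.00504. It was 0.92 without the 2 libraries farthest from the median of His2A, 0.97 in the 6 libraries with at most 25% ribosomal RNA and 0.99 in the other 4. The values of a library share its depth and its normalization factor. No other pair passed the adjustment, and the relation of His1 with His2B was negative at r = -0.66 (adjusted p = 0.443). In PVs with LpWF, replicates 4 and 5 had the highest His2B, 132 and 157 CPM, and the lowest His1, 96.1 and 88.2 CPM, and these are the libraries with 38.9 and 34.5% ribosomal RNA. Axenic PVs did not repeat this. Their replicates 4 and 5, with 43.4 and 27.9% ribosomal RNA, had His2B at 97.8 and 90.3 CPM, below replicates 1 and 3 at 125 and 118. Their lowest His1, 84.6 CPM, was in replicate 3.

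SG libraries were then set against crop and PV, all from flies given LpWF. His1, His2A and His2B were called lower in SG in both comparisons, where 39.4% of 9056 features were called lower than in crop and 41.2% of 9478 lower than in PV. His3 and His4 passed the filter on low counts only through crop or PV, so they had to differ and are given by their reads and pooled folds. These directions held on the coding TPM scale, on which the median of all genes stood 3.10 lower than in crop and 2.24 lower than in PV.

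The families differed in how far they stood below. His1 had 113, 60.04 and 51 reads in the SG libraries against 3475, 2288 and 2879 in crops. Its log2 difference from crop was -4.03 (SE 0.35, adjusted p = 6.88e-05) and from PV -4.59 (SE 0.32, adjusted p = 1.71e-06). His2A, with 54, 33 and 41 reads in SGs against 2907, 2219 and 3445 in crops, differed by -4.83 (SE 0.25, adjusted p = 4.24e-07) from crop. These were the smallest differences among the families, and pooled CPM was 17.3-fold higher for His1 and 30.0-fold higher for His2A in crop than in SG.

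His2B had 16, 15 and 27 reads in SGs against 3913, 3331 and 4730 in crops, a log2 difference of -6.48 (SE 0.25, adjusted p = 2.89e-08). His4 had 1.5, 3 and 6 reads against 633, 528 and 1110 in crops, and its mean CPM was 94.5-fold higher in crop than in SG, or 160.4-fold without SG replicate 3. His3 had 0 reads in all 3 SG libraries against 423, 376 and 441 in crops. Against the 3 counts that a total of 0 allows, pooled over the group, His3 stood at least 185-fold higher in crop and at least 223-fold higher in PV. The make-up of the remaining reads differed too: His1 held 40.8 to 61.2% of the replication-dependent reads in SGs against 22.8 to 30.6% in crops, and the ratio of His2A to His2B TPM was 2.16 to 4.79 in SGs.

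Noncoding RNAs that lack a poly(A) tail stood lower in SG as well. Of the 4 tested, RNaseMRP:RNA and snRNA:7SKa passed the filter only through crop or PV, so they are given by their reads. 7SLRNA:CR32864 and RNaseP:RNA were called lower, beside 39.4% of all features called lower than in crop and 41.2% lower than in PV. Against crop, 7SLRNA:CR32864, the RNA of the signal recognition particle, was at -5.87 on the log2 scale (SE 1.15, adjusted p = 0.00946). RNaseP:RNA, which trims tRNA precursors, was at -6.30 (SE 0.49, adjusted p = 0.000119). Against PV, 7SLRNA:CR32864 was at -7.29 (SE 0.74, adjusted p = 1.65e-05) and RNaseP:RNA at -7.40 (SE 0.21, adjusted p = 1.86e-09). RNaseMRP:RNA, which acts on ribosomal RNA precursors, had 36, 38 and 8 reads in SGs against 55342, 21244 and 31316 in crops. snRNA:7SKa, a regulator of transcription elongation, had 5, 16 and 19 against 96824, 53482 and 68895. The families with a log2 difference given here lay from -4.03 to -6.48 against crop and, with His2A at -4.91 (SE 0.34) and His2B at -6.56 (SE 0.45), from -4.59 to -6.56 against PV. The order of families and RNAs was not tested. The part of poly(A) selection cannot be told apart from that of tissue.

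Variants did not follow the families. Of the 4 tested, 3 were called higher in SG and 1 lower in both comparisons, where 36.6% of features were called higher than in crop and 35.2% higher than in PV. His4r had 18373, 24226 and 21982 reads in SGs against 10147, 6322 and 9435 in crops. Its log2 difference was 2.54 from crop (SE 0.11, adjusted p = 1.79e-08) and 2.12 from PV (SE 0.11, adjusted p = 6.15e-08), but -1.75 and -1.16 on the coding TPM scale, which put it 1.34 and 1.08 above the median of all genes. His4r ranked 60 of 13593 features by mean coding TPM in SGs, against 126 in crops.

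His3.3A had 3804, 5084 and 4162 reads in SGs against 2130, 1327 and 1927 in crops. It differed by 2.49 from crop (SE 0.10, adjusted p = 1.73e-08) and 2.22 from PV (SE 0.10, adjusted p = 2.58e-08), but by -1.68 and -0.92 in coding TPM, or 1.42 and 1.32 relative to the median of all genes. His2Av, with 649, 737 and 626 reads in SGs against 958, 734 and 878 in crops, differed by 0.85 (SE 0.10, adjusted p = 4.27e-05) and 0.69 (SE 0.10, adjusted p = 0.000116), but by -3.15 and -2.30 in coding TPM, where it was within 0.06 of the median. His3.3B went the other way from His3.3A, although they encode one protein. It had 5103, 6442 and 5487 reads in SGs against 22150, 18246 and 20108 in crops, with log2 differences of -0.63 (SE 0.10, adjusted p = 0.000194) and -0.68 (SE 0.10, adjusted p = 0.000107), and it was lower in coding TPM too, at -1.40 and -1.31 relative to the median.

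The annotated transcripts of a variant have coding sequences of one length and differ in untranslated regions, and the estimated mix of these transcripts differed between SG and the other tissues. The longest His3.3B transcript, FBtr0340343 with 2114 bases and a 3′ UTR of 1589, held 57.4 to 66.7% of the gene's TPM in crops, 50.2 to 61.5% in PVs with LpWF and 50.0 to 57.7% in axenic PVs, but 12.2 to 17.4% in SGs. In SGs most of the TPM, 52.2 to 58.8%, was on FBtr0071347, which has a 3′ UTR of 874 bases and starts within the gene, at 9155613. For His4r, FBtr0082963 with a 5′ UTR of 154 bases held 70.6 to 79.1% in SGs and 37.9 to 61.7% in the other libraries, and FBtr0334029, with the longer 3′ UTR of 189 bases, held 2.51 to 2.97% in SGs and 11.5 to 37.1% elsewhere. SG did not overlap with the other groups for these transcripts. No test was run on them, and how often transcripts of other genes separate SG in this way was not tested. His2Av and His3.3A kept their main transcripts in every group: FBtr0085062 held 84.5 to 99.1% of His2Av TPM, and FBtr0079010 held 71.8 to 93.9% of His3.3A TPM.

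**Figure D4:**
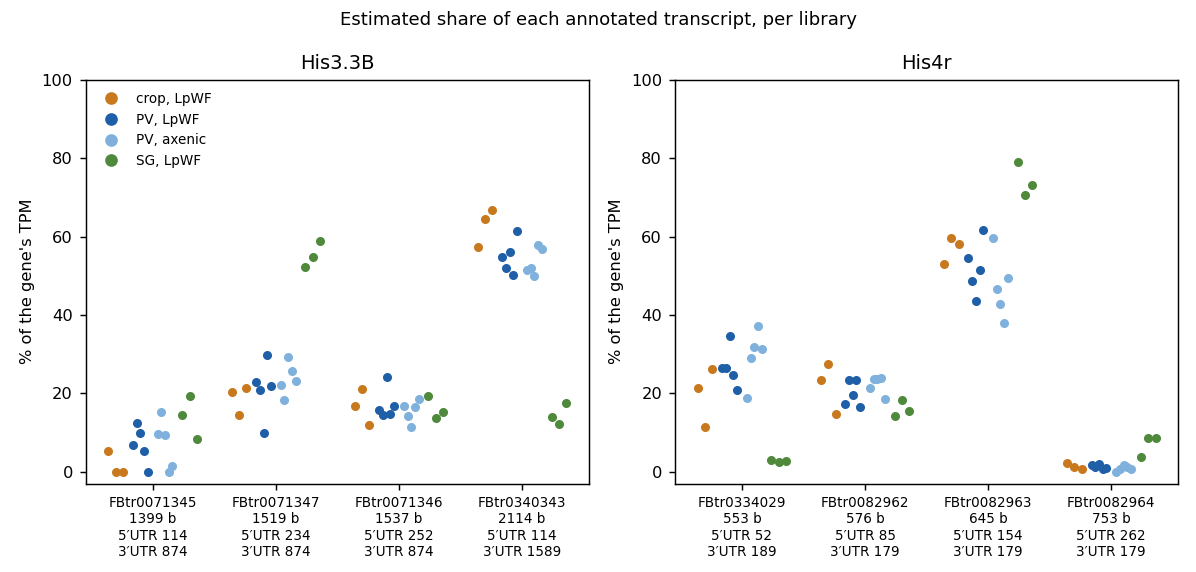
Percent of the TPM of His3.3B (left) and His4r (right) given to each annotated transcript, labelled with its length and UTR lengths in bases; each point is a library, coloured by group. For His3.3B the transcript with the long 3′ UTR held 50.0 to 66.7% in crops and PVs and 12.2 to 17.4% in SGs.

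Estimated reads were given to different copies in different libraries of a group, so single copies are described without a test. Of the 31 listed copies 5 had 0 reads in all 13 crop and PV libraries, and 10 had 0 reads in at least 1 of these libraries and over 100 in another. His2A reads were given to His2A:CG33832 (21483227 to 21483719) and His2A:CG31618, apart from 4.11 reads on His2A:CG33853 in axenic PV replicate 2. They were split equally, to within 1%, in 7 of the 10 libraries where both had over 10 reads, and His2A:CG31618 had 0 reads in 3 libraries. His2A:CG33808, the only listed His2A copy of 476 bases, had 0 reads throughout. For His4, His4:CG33891 (21479042 to 21479454) held between 0 and 100% of the reads, with a mean of 404 over the 13 libraries. His4:CG33877 had the lowest mean, 0.146. The copies of other lengths were used in few libraries: His4:CG33907 of 412 bases in 1, His4:CG33871 of 528 bases in 2. In SGs all reads of the family, 1.5, 3 and 6, were on His4:CG33869 of 526 bases, and the pseudogene His-Psi:CR33867 had the same numbers.

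His1:CG33837 (21491541 to 21492563) held 28.0 to 70.8% of His1 reads in every crop and PV library, a mean of 2061 reads. It had the most reads of the listed copies in all of them but crop replicate 2, where His1:CG33816 had 724 and His1:CG33852 had 647 against its 640.1. His1:CG33816 (21456113 to 21457135) held 17.5 to 31.7%. His1:CG33801 and 3 others had 0 reads in all 13. In SGs the highest mean was that of His1:CG33816, 32.5 reads. His3 reads were almost all on His3:CG31613 (21425193 to 21425721), at 90.1 to 100% of the family and a mean of 427 reads, against 6.47 for His3:CG33818. For His2B, His2B:CG33868 had the highest mean, 1010 reads in crops and PVs and 5.69 in SGs, and His2B:CG17949 the lowest, 8.39. Pseudogenes of the cluster took reads as well: His-Psi:CR33867 had 0 to 551 reads in crop and PV libraries and His-Psi:CR33802 had 0 to 755. With the reads of the His-Psi genes added to His4 and His2A, by their place in the repeat, the number of families called was the same in all 4 comparisons, but the uncalled differences of crop from PV turned from 0.33 to -0.05 for His4 and from -0.02 to 0.05 for His2A.

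**Figure D5:**
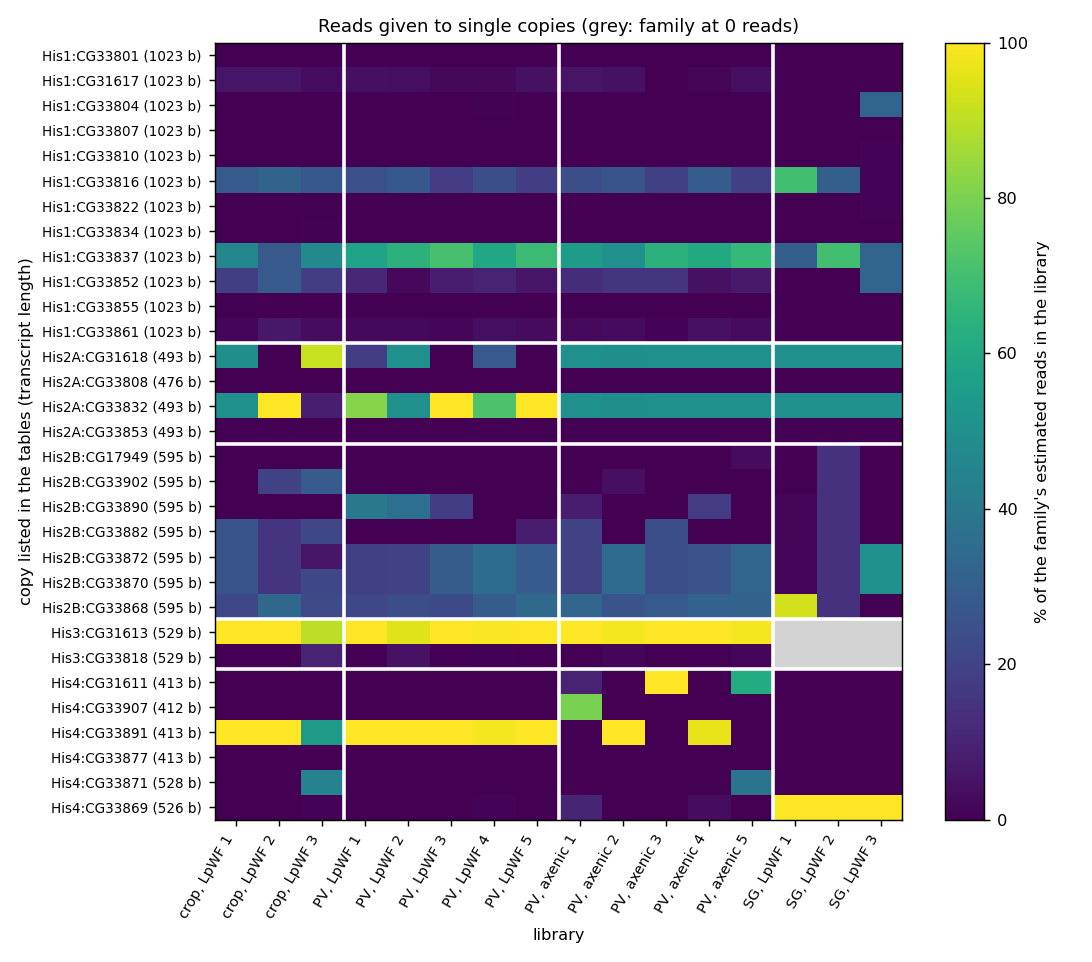
Share of a family's estimated reads given to each of the 31 listed copies (rows, with transcript length in bases) in each of the 16 libraries (columns); colour runs from 0 to 100% and grey marks His3 in SGs, where the family had 0 reads. His2A, His2B and His4 reads shift between copies among replicates of one group, while His1:CG33837 holds 28.0 to 70.8% in all crop and PV libraries.

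Genes that work with histones were counted from lists. Factors of histone mRNA 3′ processing numbered 12. Of the 11 tested, crop was called higher than PV for 1 and lower for 1, beside 26.2 and 25.5% of all features. Slbp, the stem-loop binding protein, was higher by 0.46 on the log2 scale (adjusted p = 0.0177), with 374, 217 and 314 reads in crops and 125 to 310 in PVs with LpWF, and Ars2, a cap-complex factor, was lower by 0.19 (adjusted p = 0.0353). The median of the list was -0.05 and that of all genes 0.01. Leaving out each library gave 0 to 2 higher and 0 to 1 lower, with none higher without crop replicate 3. snRNA:U7 was listed at 0 in all 16 libraries. In SG against crop 4 were called higher and 2 lower, beside 36.6 and 39.4% of all features. They were led by Ars2 (1.01, adjusted p = 6.28e-06), CstF64 of the cleavage machinery (0.64, adjusted p = 0.00303) and Cpsf100 (-0.41, adjusted p = 0.0315). The numbers of called genes fell to 2 to 3 higher and 0 to 1 lower whichever library was left out. In SG against PV 3 were called higher and 3 lower, beside 35.2 and 41.2% of all features. Lsm10 was at 0.83 (adjusted p = 0.0445) and Slbp at 0.81 (adjusted p = 0.000228). Lsm11, a U7 ring protein called lower, passed the filter only through PV, with 5, 9 and 15 reads in SGs and 28 to 84 in PVs with LpWF.

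Of 17 histone chaperones and exchange factors, 2 were called higher and 5 lower in crop than in PV, beside 26.2 and 25.5% of all features, with a list median of -0.02. Leaving out each library gave 1 to 3 higher and 3 to 5 lower, the lowest being 1 and 3 without crop replicate 3 (1 higher without crop replicate 1 too), and the replicate block gave 1 and 2. Caf1-105, a subunit of the chaperone that deposits H3 and H4 on new DNA, was at 0.98 (adjusted p = 0.0231), the exchange ATPase dom at -0.70 (adjusted p = 0.00647) and the H2A-H2B chaperone Nap1 at 0.50 (adjusted p = 0.000523). In SG, 5 were called higher and 2 lower than in crop, beside 36.6 and 39.4% of all features. Against PV 5 were called higher and 4 lower, beside 35.2 and 41.2%. The list medians were 0.06 and 0.14, beside -0.04 and -0.14 for all genes. None was called lower than in crop without crop replicate 1. Nlp, a nucleoplasmin, was at 1.37 (adjusted p = 1.54e-06) and 1.17 (adjusted p = 1.23e-06), Nap1 at 0.84 (adjusted p = 1.94e-05) and 1.29 (adjusted p = 6.51e-07), asf1, which hands H3 and H4 to other chaperones, at 0.92 from crop (adjusted p = 0.000105), and Caf1-105 at 0.96 from PV (adjusted p = 0.0172). On the coding TPM scale no gene of either list was called higher in SG and none was called lower in crop than in PV.

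Transcripts of S phase and mitosis were scarce beside those of the cluster in crops and PVs. PCNA, the sliding clamp of DNA polymerase, had 16 to 24 reads in crops, 0 to 28 in PVs and 0 to 2 in SGs, beside 6552 reads or more on the families in every crop and PV library. PCNA was among the lowest of the replication genes, and E2f1, the highest, had 1195 to 3868 reads per library. The summed level of 20 DNA replication genes was 113 to 131 coding TPM in crops, 49.1 to 73.0 in PVs with LpWF, 45.2 to 52.9 in axenic PVs and 10.8 to 12.8 in SGs, and that of 15 mitosis genes was 5.33 to 7.20, 1.92 to 4.56, 1.44 to 4.45 and 0.0923 to 0.127. In crop against PV, 5 of the 20 replication genes were called higher and 2 lower, with a list median of 0.21. These shares were near those of all features, 26.2 and 25.5%, or below. Leaving out crop replicate 1 or 3 or PV replicate 3, 4 or 5 gave 3 higher, 0 to 3 were lower over all libraries left out, and 3 were higher and 0 lower with the replicate block or without the PV libraries over 25% ribosomal RNA. The leading 3 encode subunits of the MCM helicase, Mcm5 at 1.90 (adjusted p = 0.00136), Mcm3 at 1.12 (adjusted p = 0.0110) and Mcm6 at 0.95 (adjusted p = 0.00407). Mcm5 had 53, 81 and 91 reads in crops and 10 to 28 in PVs with LpWF.

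Of the mitosis list 6 genes passed the filter in that comparison. The calls were few and unsteady, with 2 higher and 2 lower in crop in the full fit, beside 26.2 and 25.5% of all features. The higher ones fell to 0 when any crop library or PV replicate 1 was left out. BubR1, a spindle checkpoint kinase, was at 0.95 (adjusted p = 0.0269). The kinase gene aurA passed the filter only through crop, with 20, 18 and 34 reads in crops and 3, 14, 1, 7 and 5 in PVs with LpWF. The centromeric H3 gene cid and CycA, a mitotic cyclin, passed the filter only through PV. cid had 5, 2 and 2 reads in crops and 12, 39, 44, 5 and 5 in PVs with LpWF, and CycA had 3, 0 and 6 against 12, 20, 12, 19 and 7.

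In SG against crop 8 replication genes were called higher and 9 lower, beside 36.6 and 39.4% of all features. RnrS, a ribonucleotide reductase gene, had the largest difference of the higher ones, 2.32 on the log2 scale (adjusted p = 2.99e-07). Its reads were 336, 523 and 368 in SGs against 178, 165 and 211 in crops. Of the lower ones, 4 (Mcm5, Mcm7, PCNA and PolA1) had under 10 reads in every SG library and so passed the filter only through crop. Mcm5 had 1, 1 and 0 reads in SGs, Mcm7 had 0, 0 and 2 against 43, 46 and 42 in crops, and PolA1, the catalytic subunit of DNA polymerase alpha, had 9, 3 and 7 against 48, 73 and 141. RnrL, a ribonucleotide reductase subunit, had 8, 10 and 2 reads in SGs against 167, 125 and 157 in crops. It too met the filter only through crop. The same held for Mcm3 with 23, 7 and 21 reads in SGs and RPA2 with 17, 13 and 8. In SG against PV 8 of 19 were called higher and 6 lower, beside 35.2 and 41.2% of all features. Of the lower ones, 3 (Mcm5, Mcm7 and PolA1) had under 10 reads in every SG library and so passed only through PV. The other lower ones, RnrL, RPA2 and Cdc6 (10, 10 and 12 reads in SGs), fell short of the filter in SG too. On the coding TPM scale none was higher in SG. Of the mitosis genes none was called higher in SG by counts. aurA, at 0 reads in SG, was at least 10.8-fold higher in crop but passed the filter only through crop. So did ncd, a kinesin, with 3, 9 and 10 reads in SGs against 72, 57 and 59 in crops. Against PV, cid with 0, 0 and 2 reads in SGs and CycA with 3, 0 and 1 passed only through PV.

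In PV with LpWF against axenic none of these lists held a called gene. The median of the 19 replication genes tested was 0.40 on the log2 scale beside 0.00 for all genes, and 18 of the 19 were above 0. RnrL was at 0.86 (adjusted p = 0.441) and Mcm3 at 0.97 (adjusted p = 0.493). The medians of the 3′ processing and chaperone lists were 0.15 and 0.06.

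Markers of other cell types moved with the tissues. Muscle genes (7 of 7 detected) summed to 13326 to 15319 coding TPM in crops, 835 to 1158 in PVs and 6.12 to 6.57 in SGs, and enterocyte genes (7 of 7) to 883 to 8633, 16814 to 62241 and 5.15 to 12.3. Germline markers, 10 genes of a tissue rich in histone mRNA, summed to 1.24 to 2.57 in crops, 1.04 to 2.88 in PVs and 0.0843 to 0.197 in SGs, and 3, 2 and 5 of the 10 had 0 reads in crops, in each PV group and in SGs, zpg among them in every group and vas, osk and nanos in SGs. Midgut progenitor markers (4 genes) summed to 2.61 to 3.74, 3.05 to 7.29 and 0.00546 to 0.0118, and follicle cell markers (9 genes) to at most 2.65 in any library. Fat body genes (5) summed to 2016 to 2781, 1046 to 3336 and 50.2 to 55.8. The summed levels of hemocyte, neuron and nephrocyte markers were at most 34.5 coding TPM in any library. The part of these cells in the histone differences was not tested.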

How the data were processed

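The 16 libraries were made from pooled tissue and read as single ends of 75 bases. The authors quantified transcripts with Salmon, in a Nextflow workflow, on the BDGP6 annotation of Ensembl release 98. The deposited estimated counts are raw, with no scaling for depth. The TPM column deposited beside them has one fixed sum per library, noncoding RNA included. The Salmon version is not given in the sources used here. For PV the authors used DESeq2 on gene counts.

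Genes were built from transcripts by Ensembl release 115, and copies of a histone family were summed into 1 feature. Reads of transcripts with no gene in that release, 0.128 to 0.257% of a library, were left out. The test on rounded counts was that of edgeR 4.0.16 in R 4.3.3 (TMM, filterByExpr, robust quasi-likelihood), each comparison on its 2 groups. P-values were adjusted over all features, and 95% intervals used the degrees of freedom of the fit. CPM was TMM-normalized over 16 libraries. Coding TPM was tested as log2(coding TPM + 1) with limma 3.58.1 for genes with a mean of at least 1. Floors of 3 counts cover counting error only. No library copied another of its group: counts differed by at least 21.8 times the counting variance per gene. The fits were tested on simulated data.

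Members and gene lists were chosen with earlier results of these data known. Every family and variant is named; single copies are named for the highest or lowest mean of their family or an unusual length, and of each list the 3 called genes with the largest difference. List genes under 10 reads in every library of the lower group passed the filter through the other group and are given by reads. The filter works on CPM. RnrL, Mcm3, RPA2, Cdc6, ncd, Lsm11, RNaseMRP:RNA and snRNA:7SKa in SG, and aurA in PV, also fell short of it and are given by reads. The other genes named for their reads (PCNA, E2f1, RnrL and Mcm3 in PV, BubR1, PolA1 in crop, and RnrS in SG) were chosen after their values were seen. 7SLRNA:CR42652 matched no gene. Sequence features of the histone genes were not analysed here. Alternatives were DESeq2 1.42.0 and its size factors, filters at 1 count in any library and 10 in every library, protein-coding genes only, effective length offsets, coding TPM, a replicate block, 1 fit over 13 or 16 libraries, a term for or removal of libraries over 25% ribosomal RNA, removal of the 10 highest SG genes, and leaving out each library. Added after seeing the data were pseudogene reads in the families and reads per annotated base for shares. Tables and plots were made in Python 3.11.15 (numpy 2.4.6, pandas 2.3.3, matplotlib 3.10.9) and correlations in scipy 1.17.1.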

Additional observations from a re-analysis of the deposited data

Results flagged for a closer look

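Replicate 4 of PV with LpWF stood apart from the other 4 libraries of its group. The His3 family was at 20.3 CPM there against 10.7 to 12.4 CPM in the others, and His3 copies held 15.0% of H3 TPM against 8.31 to 10.2%. His4r was at 238 CPM there against 294 to 306 CPM. The gap to the nearest library exceeded Dixon's 95% critical value in these 3 of 26 series of values examined in the PV groups, where chance gives about 1 in 20. This library also had the highest share of ribosomal RNA in its group, 38.9%, and the part of that share in these values was not tested.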

How the results depend on the processing

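The scale decided most changes of direction. With limma on coding TPM, crop against PV gave His1 0.48, His2A 0.99, His2B 1.01, His3 0.71, His2Av 0.85, His3.3A 0.76 and His4r 0.60, with 5 families and 4 variants called; 88.3% of all calls were then higher in crop, against 50.6% by counts. SG against crop gave His2Av -3.15, His3.3A -1.68 and His4r -1.75, and SG against PV -2.30, -0.92 and -1.16, with 1.41 and 1.75% of calls higher against 48.2 and 46.1%. With 10 counts in every library 3 families were called in each SG comparison, since His3 and His4 then left the table. Leaving out each library gave 0 to 1 variants called in crop against PV, 0 without crop replicate 2. As read counts the replication-dependent shares were 25.7% (crop), 26.2% (PV with LpWF) and 24.5% (axenic PV), and as reads per annotated base 39.2% in crop and 34.7% in axenic PV; the denominators differ by construction. Replicate numbers share no stated origin, and deviations of same-numbered PV libraries correlated at 0.03 to 0.38, none best with its own number. With the replicate block 34 features were called in PV with LpWF against axenic, where 1 was called without it, and 51 by DESeq2. Leaving out PV with LpWF replicate 5 gave 10 and the ribosomal RNA term 14, none of them histones. The block changed no histone call: 1 family and 1 variant in crop against PV, 0 in PV, 5 families and 4 variants in each SG comparison.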
